A study of Mus musculus with 16 samples.

Results

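The genes described here were 31 genes of the oligodendrocyte lineage, from markers of precursor cells to the proteins of the myelin sheath. They were taken by name, as a list of gene symbols. Each of the 31 symbols matched 1 of the 48795 gene identifiers in the counts table, and all 31 passed the filter on low counts that kept 20645 genes for testing. The libraries were made from the striatum of young adult CAG-Cas9-EGFP mice, which carry Cas9 and EGFP, after AAVs had been injected into both central striata. In Control mice (labelled WT for genotype) the AAV carried a guide RNA against GFP, and in Crym KO mice it carried guide RNAs against Crym, which encodes μ-crystallin, a protein that binds thyroid hormone. All 8 mice, Control and Crym KO alike, also received an AAV that placed an HA-tagged ribosomal protein, Rpl22-HA, under the astrocyte promoter GfaABC1D. Antibodies against HA pulled down tagged ribosomes with their RNA (IP), and a share of each lysate was set aside, before the pull-down, as bulk striatum (Input). There were 4 groups of 4 libraries, Control IP, Crym KO IP, Control Input and Crym KO Input, and each mouse gave 1 IP and 1 Input library. The model has limits: the tag depends on where the virus spread and on where its promoter was active, and the oligodendrocyte lineage was not the target of the pull-down.

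Oligodendrocytes wrap axons of the central nervous system in myelin, a stack of membrane rich in lipids and in a small number of abundant proteins. They arise from precursor cells that depend on platelet-derived growth factor and carry Pdgfra and the NG2 proteoglycan (Cspg4), and pass through a short-lived newly formed stage before they make myelin. Sox10, Olig1, Olig2, Nkx2-2, Nkx6-2 and Myrf are the transcription factors that specify the lineage and switch on the myelin genes, and bundles of myelinated axons cross the striatum.

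Total counts ran from 39421209 to 62596661 per library. Crym itself was lower in Crym KO IP than in Control IP by a log2 fold change of -1.52 (SE 0.16, limma adjusted p = 0.000514), in the direction of the labels. Rpl22, the gene of the tagged ribosomal protein, was higher in Crym KO IP by 0.93 (SE 0.12, limma adjusted p = 0.00367), at 280.4 to 350.2 CPM in Control IP and 496 to 714 CPM in Crym KO IP. The part of this difference in the values of the 31 genes was not tested. Levels are given as CPM, counts per 1000000 on library sizes scaled by the TMM method. Adjusted p-values are from limma-voom over all 20645 genes, and a gene was called when its adjusted p was under 0.05. 2 mice stood apart in ways that touch these genes. The IP library of Crym KO mouse 3 correlated less, across genes, with the Input library labelled as the same mouse (r = 0.0728) than with that of Crym KO mouse 4 (r = 0.181), as deviations from the group means. Control Input 4 held 578 CPM of Ttr, the choroid plexus transcript of transthyretin, against 0.874 to 7.06 CPM in the other 7 Input libraries, and Control IP 4 held 142 CPM. Counts of Xist and Ddx3y marked mice 1 and 2 as female and mice 3 and 4 as male, in Control and in Crym KO.

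The defining markers were present in every library. At any of these levels, the number of oligodendrocytes and the amount of RNA in each cannot be told apart. Mbp, myelin basic protein, the major protein that holds the cytoplasmic faces of compact myelin together (ENSMUSG00000041607, chr18:82475146-82585637, plus strand, mm10), was at 1621, 1302, 1354 and 1230.2 CPM in Control IP 1 to 4 and at 1191, 1366, 926 and 1116 CPM in Crym KO IP 1 to 4. In Control Input it was at 1597, 1313, 1441 and 1694 CPM and in Crym KO Input at 1597, 1504, 1815 and 1427 CPM. Pdgfra, the receptor that defines precursors (ENSMUSG00000029231, chr5:75152292-75198215, plus strand), was at 36.6, 26.3, 37.2 and 32.6 CPM in Control IP and 38.1, 40.1, 32.7 and 37.8 CPM in Crym KO IP. Its Input levels were 67.9, 72.7, 66.9 and 71.7 CPM in Control and 74.6, 71.7, 72.3 and 67.2 CPM in Crym KO. Both fractions of every mouse thus held transcripts of both ends of the lineage, and the 8 IP values of Pdgfra all lay below its 8 Input values. Mbp overlapped between IP and Input in Control mice, and all 4 IP values lay below all 4 Input values in Crym KO mice. Here and below, the share of all genes whose IP and Input values separate in this way was not counted. Such a separation is therefore not read as particular to these genes.

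Compared per length of merged exons, the levels of the genes spanned more than 2 orders of magnitude. In Control IP, Mal was highest at 175 CPM per kb, followed by Mbp at 163, Cnp at 156 and Cldn11 at 117 CPM per kb. Mal and Mbp did not differ beyond their spread there, as their SDs over 4 mice were 33.1 and 20.2 CPM per kb. In Control Input, Mbp was highest at 178 CPM per kb, followed by Mal at 133, Cnp at 98.9 and Mobp at 86.9 CPM per kb. Nkx2-2 was lowest in all 4 groups, at 0.494 to 0.559 CPM per kb. The median of the 31 genes was 20.5 CPM per kb in Control IP and 16.3 in Control Input, where the medians of all tested genes were 2.75 and 2.76 CPM per kb. Reads of Cnp, Ermn, Nkx6-2, Gpr17 and Tspan2 may be shared with a protein-coding gene on the opposite strand (Dnajc7, Galnt5, Inpp5a, Lims2 and Tshb), and those of Trf with Gm20425 on its own strand, since a strand setting for the counting is not given in the sources used here. Taking the longest transcript as the length raised levels by up to 2.08 times.

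The first comparison asked how RNA of the lineage passed through a pull-down aimed at astrocytes. The 31 genes did not behave as 1 group. In Control mice 13 of 31 were higher in IP than in Input and 7 were lower, where 36.7% of all genes tested were called higher and 38.5% lower. The median log2 ratio of IP over Input was 0.18 over the 31 genes and -0.024 over all genes. The genes higher in IP were Mag, Mal, Cldn11, Cnp, Opalin, Ermn, Tspan2, Aspa, Trf, Gpr37, Sox10, Nkx6-2 and Myrf, with log2 ratios from 0.35 (Tspan2) to 0.82 (Gpr37). The genes lower in IP were Pdgfra, Gpr17, Neu4, Cspg4, Enpp6, Mobp and Bcas1, from -1.09 (Pdgfra) to -0.31 (Bcas1). These counts depend on the scaling between fractions. With upper quartile scaling, which moved the median ratio of all genes to -0.18, 8 genes were higher and 9 lower, and with library sizes alone, at a median of -0.22, 6 were higher and 9 lower. Mal, Cldn11, Tspan2, Sox10 and Nkx6-2 were not called higher under either of these. Opalin and Aspa also lost the call with library sizes alone. Mal, Tspan2 and Nkx6-2 lost it without Control IP 1 as well. Over all genes tested the split was 7585 higher and 7955 lower, against 5536 and 9847 with upper quartile scaling and 5123 and 10267 with library sizes alone.

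In Crym KO mice 2 of 31 genes, Cnp and Gpr37, were higher in IP and 9 were lower, where 36.2% and 37.9% of all genes tested were called in each direction. Mbp and Lhfpl3 joined the 7 genes that were also lower in Control mice. The median log2 ratio of the 31 genes was -0.0097. Without Crym KO IP 3 the count of higher genes was 6 (Mag, Cnp, Trf, Myrf, Enpp2 and Gpr37) and that of lower genes was 8. In that fit 7604 and 7726 of all 20987 genes were called higher and lower. With upper quartile scaling or library sizes alone the counts were 1 higher and 14 lower. Over all genes they were 5393 and 9701 with upper quartile scaling, and 5054 and 10092 with library sizes alone. Whether IP over Input differed between the genotypes was tested by the interaction described further on.

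**Figure D1:**
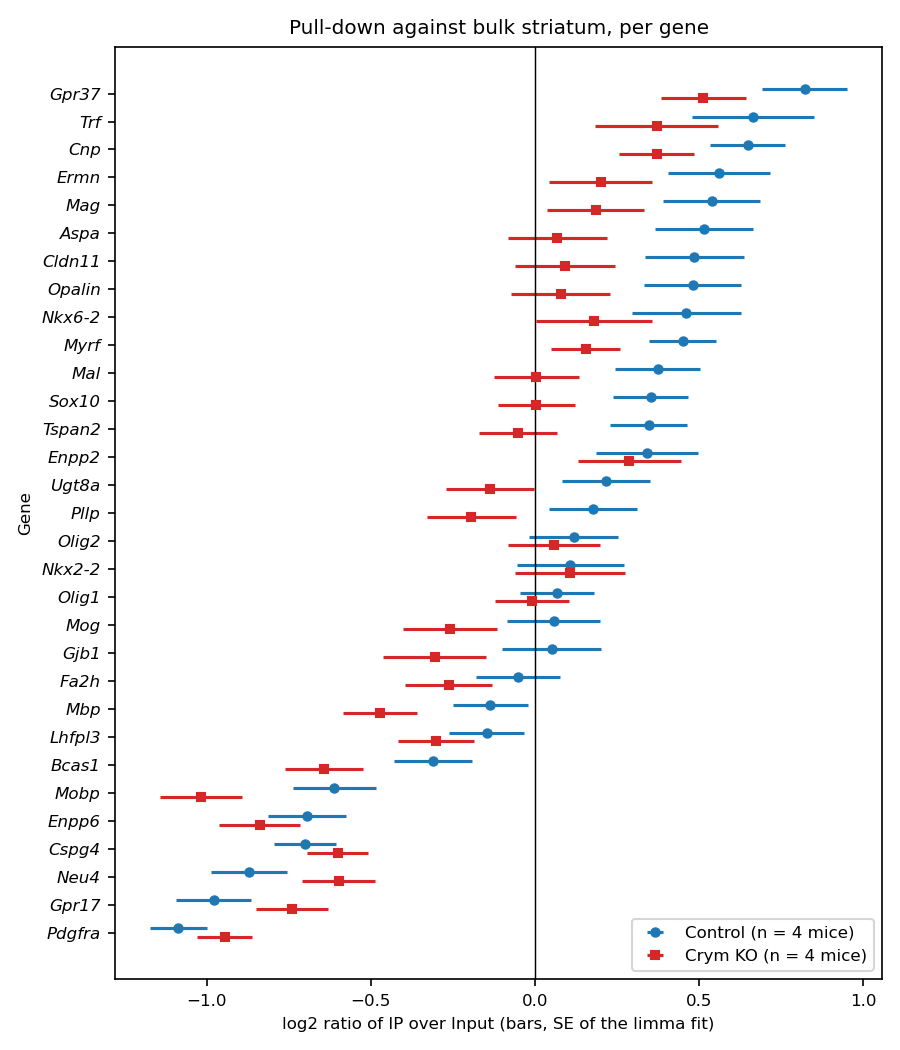
log2 ratio of IP over Input for each of the 31 genes (horizontal axis), ordered by the ratio in Control mice, with circles for Control, squares for Crym KO and bars for the SE of the limma fit over 4 mice. Pdgfra, Gpr17 and Neu4 lie at the bottom in Control mice, at -1.09, -0.98 and -0.87, and Gpr37, Trf and Cnp at the top, at 0.82, 0.66 and 0.65.

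For scale, the 10 astrocyte markers had a median log2 ratio, IP over Input, of 2.04 in Control and 2.20 in Crym KO, with 10 and 10 of 10 called higher. The 8 microglial markers were at -4.76 and -4.81 and the 7 endothelial markers at -3.85 and -3.89, with 8 of 8 and 7 of 7 called lower in both genotypes. The 10 neuronal markers were at 0.51 and 0.38. The 12 genes of the myelin sheath had medians of 0.36 and -0.024, and the 6 precursor genes medians of -0.79 and -0.60. By these medians the oligodendrocyte genes lay between astrocyte markers on the one side and microglial and endothelial markers on the other. So did the neuronal markers, the mural markers (-1.20 and -1.17) and the fibroblast and meningeal markers (-3.17 and -3.45). The ependymal markers were at 2.31 and 2.27. What carried the oligodendrocyte transcripts into the IP fraction was not tested.

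**Figure D2:**
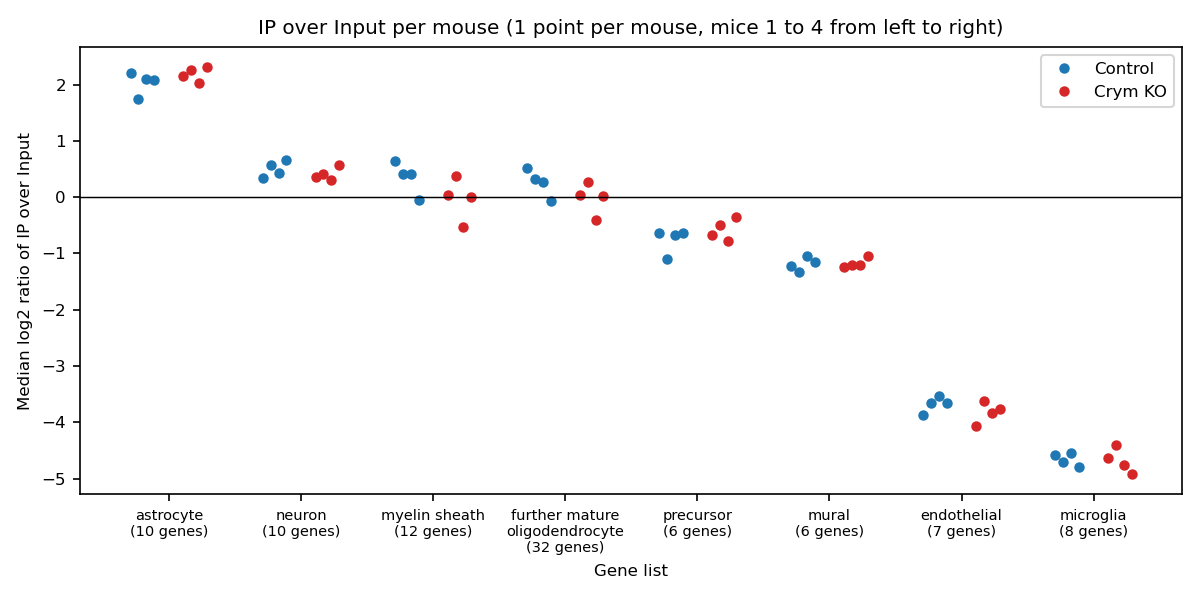
Median log2 ratio of IP over Input (vertical axis) of each gene list in each mouse, with 1 point per mouse (blue, Control; red, Crym KO) and mice 1 to 4 from left to right in each colour. The medians of the 12 myelin sheath genes ran from -0.52 (Crym KO mouse 3) to 0.64 (Control mouse 1), between the astrocyte points (1.75 to 2.31) and the microglial points (-4.92 to -4.41).

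The second comparison, Crym KO IP against Control IP, asked whether these transcripts differed with the loss of astrocytic Crym. No gene of the 31 was called in either direction, where 0.0339% of all genes tested were called (7 genes). With the mouse number as a block, 8 genes were called higher and 35 lower, none of them among the 31 (lowest adjusted p = 0.176). The lowest adjusted p was 0.460, for Myrf and for Tspan2. The estimates nevertheless leaned to one side, as 27 of 31 log2 fold changes were below 0, against 48.6% of all genes tested. Their median was -0.28, and that of all genes 0.0039. Markers of some other cells also leaned in this comparison, with none called. The medians were -0.22 for microglia (6 of 8 below 0), -0.20 for endothelium (5 of 7) and -0.20 for ependyma (4 of 4). Astrocyte markers (10 of 10, median 0.12) and mural markers (6 of 6, Cspg4 among them, median 0.24) were above 0. Neuronal markers had a median of 0.052 (7 of 10 above 0). Fibroblast and meningeal markers, Pdgfra among them, had a median of -0.076 (3 of 6 above 0). Whether the 31 genes differed from these lists, and what part those cells had, was not tested. At an unadjusted p under 0.05, 16 of 31 were lower in Crym KO, against 4.32% of all genes, and 1 (Gpr17) was higher, against 3.35%. The count of 16 was 8 when the spread was taken from the IP libraries alone. These genes vary together over libraries, so the 31 are not independent observations. No gene had its 4 Crym KO IP values all below or all above its 4 Control IP values, against 1.52% and 1.21% of all genes tested.

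The lean was much smaller without 2 libraries. Among the 8 IP libraries, Control IP 1 held the highest value of 27 of the 31 genes, and Crym KO IP 3 the lowest value of 25. Without Control IP 1 the median was -0.18, and without Crym KO IP 3 it was -0.17, and in each case 2 genes were lower at an unadjusted p under 0.05, against 12 to 22 when 1 of the other IP libraries was left out. Without both, the median was -0.060 with 19 of 31 below 0, an alternative chosen after seeing the data. The 2 libraries were picked by the values of these same genes. Leaving them out was thus bound to shrink the lean and is not a test of it. In the fits within females and within males, with 2 mice per group, the medians were -0.26 and -0.32 and no gene was called. The female fit kept Control IP 1 and the male fit Crym KO IP 3, so neither shows the lean apart from these libraries.

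**Figure D3:**
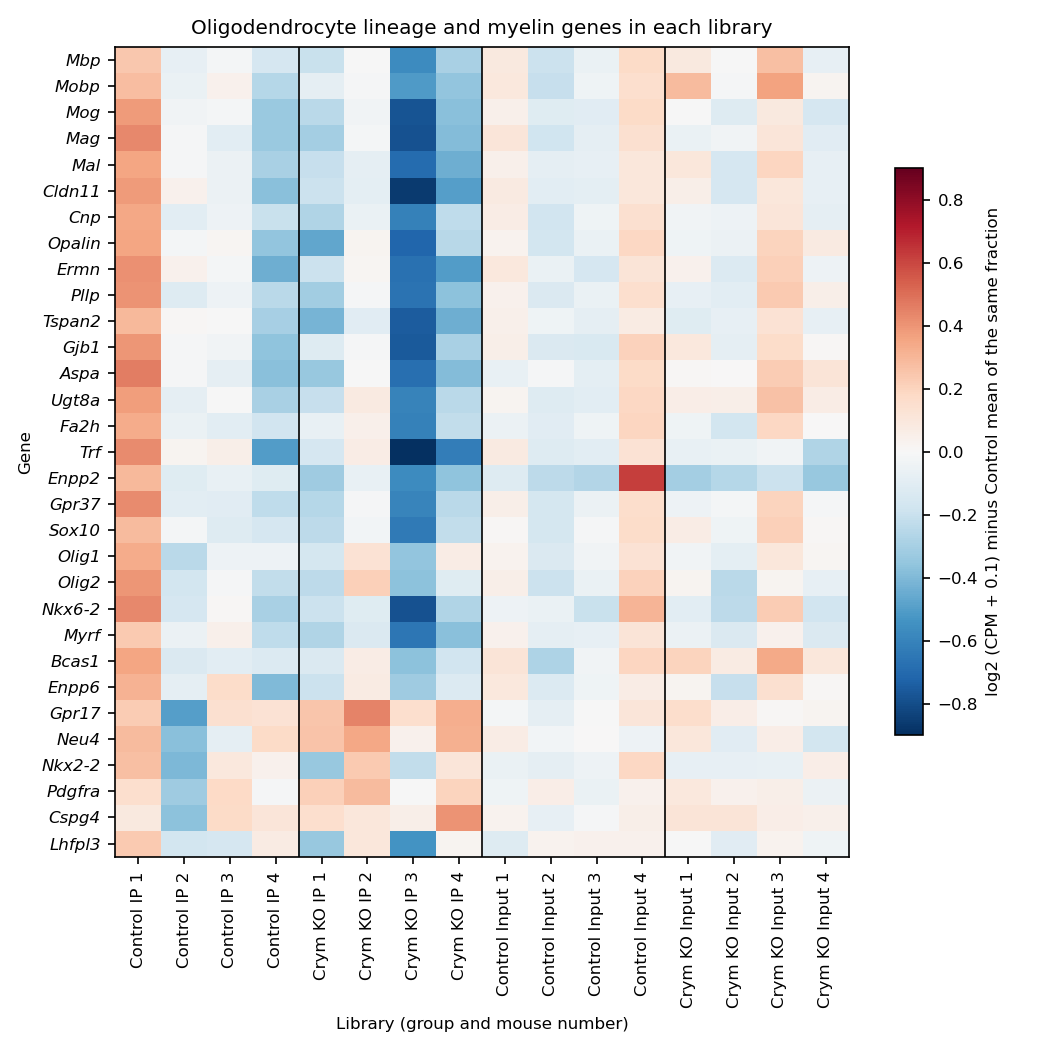
Each of the 31 genes (rows) in each of the 16 libraries (columns), as log2 of CPM + 0.1 minus the mean of the 4 Control libraries of the same fraction, red above and blue below. Control IP 1 is red and Crym KO IP 3 blue over most rows, while of the 6 precursor genes at the bottom Control IP 2 is the lowest IP library for 5.

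The same comparison in bulk striatum, Crym KO Input against Control Input, gave no call among the 31 genes, where 0.00969% of all genes tested were called (2 genes). 16 estimates were below 0 and 15 above, with a median of -0.0026, and none was at an unadjusted p under 0.05 and lower, against 3.66% of all genes. For Mbp the log2 fold change in Input was 0.070 with a 95% interval of -0.17 to 0.31. In IP it was -0.27 with an interval of -0.50 to -0.027, and the intervals overlapped. The difference between the fractions for Mbp, the interaction described next, was -0.34 (95% interval -0.67 to 0.0028, limma adjusted p = 0.9999), not called. For Pdgfra the interval in Input was -0.14 to 0.21.

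The interaction asked whether the Crym KO difference in IP departed from that in Input, which is also whether IP over Input differed between genotypes. No gene of the 31 passed, and 0% of all genes tested did (0 genes by limma and by edgeR's quasi-likelihood test, 2 by DESeq2, none of them among the 31). The median of the 31 was -0.31 with 27 below 0, and 3 were at an unadjusted p under 0.05 and lower in Crym KO IP, against 1.84% of all genes. Those 3 were Tspan2 at -0.40 (SE 0.17), Mobp at -0.41 (SE 0.18) and Sox10 at -0.35 (SE 0.16). Leaving out 1 library moved that count of 3 between 0 (without Control IP 1, Crym KO IP 3, Control Input 3 or Crym KO Input 3) and 18 (without Control IP 4), and it was 17 without Crym KO IP 2 and 11 without Control Input 4.

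**Figure D4:**
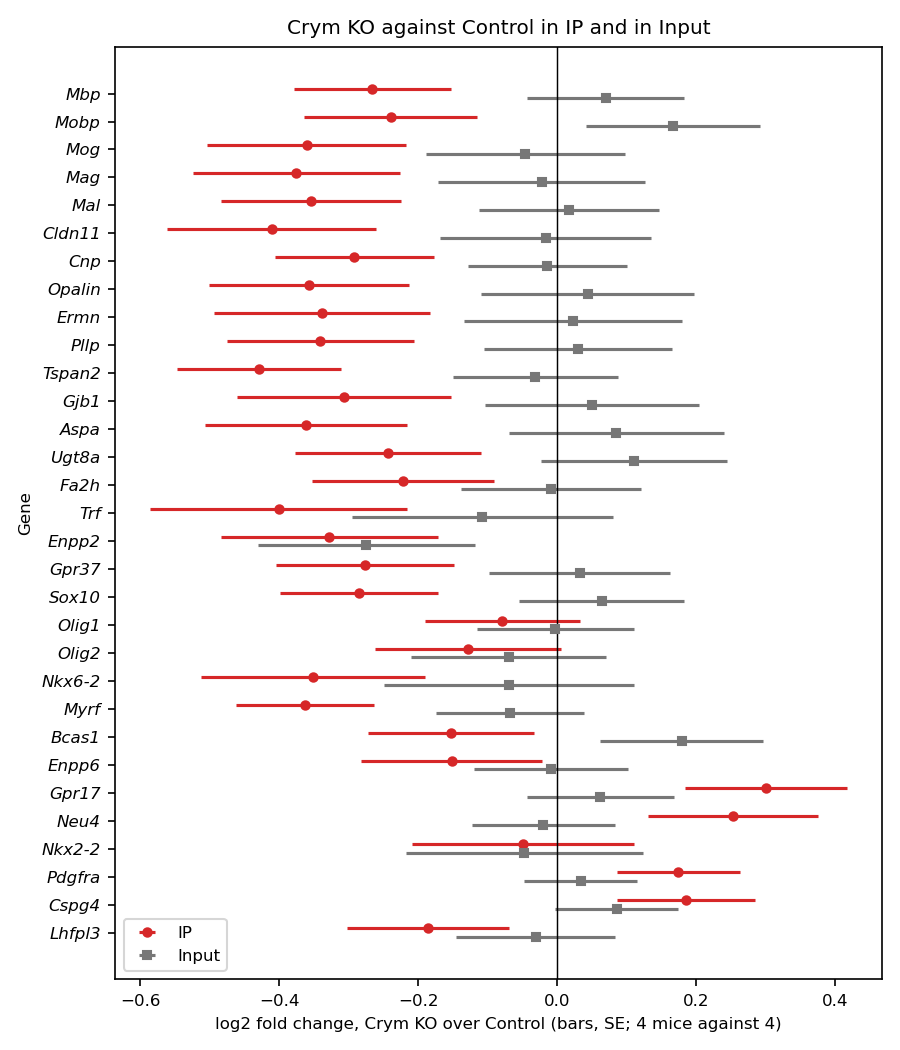
log2 fold change of Crym KO over Control for each gene (horizontal axis) in IP (circles) and in Input (squares), with bars for the SE of the limma fit, 4 mice against 4, and genes ordered by role from sheath proteins at the top to precursors at the bottom. In IP the sheath genes lie between -0.43 (Tspan2) and -0.24 (Mobp), and Gpr17, Neu4, Cspg4 and Pdgfra lie above 0.

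For the 12 genes of the myelin sheath, all 12 log2 fold changes of Crym KO IP over Control IP were below 0 (median -0.35), and none was called. Mal, a proteolipid of the membrane traffic that builds myelin, was at 612, 477, 462 and 392 CPM in Control IP and 416, 454, 296 and 354 CPM in Crym KO IP (log2 fold change -0.35, SE 0.13, adjusted p = 0.550). Its Input values were 382, 350.0, 352 and 398 CPM in Control and 397, 333, 422 and 351 CPM in Crym KO. Crym KO IP 3 was the lowest of its 16 libraries and Control IP 1 the highest, and the IP groups overlapped.

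Cldn11, the claudin of the tight junction strands in central myelin, was at 281, 222, 208 and 166 CPM in Control IP and 188, 202, 119 and 152 CPM in Crym KO IP (log2 fold change -0.41, SE 0.15, adjusted p = 0.550). Its Input values were 162, 144, 145 and 165 CPM in Control and 159.7, 138, 165 and 146 CPM in Crym KO. In Control mice all IP values lay above all Input values, whereas in Crym KO mice Crym KO IP 3 lay below every Input value. The log2 ratio of IP over Input was 0.49 (SE 0.15, adjusted p = 0.00829) in Control and 0.091 (SE 0.15, adjusted p = 0.600) in Crym KO. The call of Cldn11 in Control mice was lost with upper quartile scaling and with library sizes alone.

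Tspan2, a tetraspanin of oligodendrocytes that are beginning to make myelin, had the most negative estimate of the 31 genes. It was at 246, 202, 200.2 and 163 CPM in Control IP and 149.8, 186, 119 and 148 CPM in Crym KO IP (log2 fold change -0.43, SE 0.12, adjusted p = 0.460). Input held 163, 153, 149 and 166 CPM in Control and 146, 149.9, 173 and 149.8 CPM in Crym KO. The IP groups overlapped, since Crym KO IP 2 lay above Control IP 4.

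Cnp, the phosphodiesterase that keeps cytoplasmic channels in myelin open, was 1 of the 2 genes higher in IP in both genotypes. It was at 714, 525, 544 and 488 CPM in Control IP and 375, 319, 348 and 397 CPM in Control Input, a log2 ratio of 0.65 (SE 0.11, adjusted p = 8.20e-05). In Crym KO mice IP held 467, 538, 368 and 479.9 CPM and Input 350.2, 347, 387 and 338 CPM, a log2 ratio of 0.37 (SE 0.11, adjusted p = 0.00792). The log2 fold change between the IP groups was -0.29 (SE 0.11, adjusted p = 0.575). The call of Cnp in Crym KO mice was lost with upper quartile scaling and with library sizes alone.

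Mobp, a basic protein of compact myelin, and Mbp were the sheath genes that were lower in IP. Mobp was at 469, 371, 399 and 325 CPM in Control IP against 632, 513, 576 and 659 CPM in Control Input (log2 ratio -0.61, SE 0.13, adjusted p = 0.000334). In Crym KO it was at 367, 384, 272 and 303 CPM in IP and 722, 589, 762 and 604 CPM in Input (log2 ratio -1.02, SE 0.13, adjusted p = 1.62e-06). All 4 IP values lay below all 4 Input values in both genotypes. For Mbp the ratio was -0.14 (SE 0.11, adjusted p = 0.283) in Control, not called, and -0.47 (SE 0.11, adjusted p = 0.00129) in Crym KO, called. Messenger RNAs of both are known to be carried along the processes of the cell and translated near the sheath. What part this has in their ratios was not tested.

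The other sheath genes were Mag and Mog, adhesion and surface proteins of the myelin membrane, Opalin, a glycoprotein of oligodendrocytes, Ermn, a cytoskeletal protein, Pllp, a proteolipid related to Mal, and Gjb1, connexin 32 of gap junctions. Their log2 fold changes in Crym KO IP ran from -0.38 (Mag) to -0.31 (Gjb1), and in Input from -0.046 (Mog) to 0.050 (Gjb1). In Control mice Mag (0.54), Ermn (0.56) and Opalin (0.48) were higher in IP, and Pllp, Mog and Gjb1 were not called at 0.18, 0.056 and 0.051.

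The stretch upstream of the start of transcription was available for 22 of the 31 genes (RefSeq, GRCm38.p6; not for Olig1, Trf, Gpr17, Fa2h, Bcas1, Enpp2, Myrf, Mbp and Sox10). In the 250 bases before the start, the Sox type motif ACAAAG was found on either strand in 6 of 22 genes (27.3%) and in 18.6% of all 27025 genes with such a window. The E-box CAGATG was in 6 of 22 (27.3%) against 16.3%, the E-box CAGCTG in 2 of 22 (9.09%) against 14.7%, and the Myrf type motif CTGGCAC in 2 of 22 (9.09%) against 4.83%. Cnp and Mag, both higher in IP in Control mice, were the 2 genes with both ACAAAG and CTGGCAC, and their windows (for Mag, the first of 3 in the table) are printed to show where these letters lie, next to that of Pdgfra, the gene lowest in IP over Input in Control mice. Capitals mark a match to a motif on either strand (CTTTGT is ACAAAG and CATCTG is CAGATG on the other strand), and each is read 5′ to 3′ towards the start.
Cnp (chr11:100574689-100574938, plus strand): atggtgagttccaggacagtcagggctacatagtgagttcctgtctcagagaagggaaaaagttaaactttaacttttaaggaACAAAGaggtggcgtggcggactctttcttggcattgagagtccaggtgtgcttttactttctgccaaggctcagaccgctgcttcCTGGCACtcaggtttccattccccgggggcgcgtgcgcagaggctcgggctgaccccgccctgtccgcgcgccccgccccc
Mag (chr7:30914864-30915113, minus strand): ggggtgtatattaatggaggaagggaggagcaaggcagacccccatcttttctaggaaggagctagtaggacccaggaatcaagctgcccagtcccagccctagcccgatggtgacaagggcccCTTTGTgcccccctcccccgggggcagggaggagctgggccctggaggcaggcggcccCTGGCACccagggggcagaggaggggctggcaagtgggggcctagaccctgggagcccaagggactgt
Pdgfra (chr5:75152001-75152250, plus strand): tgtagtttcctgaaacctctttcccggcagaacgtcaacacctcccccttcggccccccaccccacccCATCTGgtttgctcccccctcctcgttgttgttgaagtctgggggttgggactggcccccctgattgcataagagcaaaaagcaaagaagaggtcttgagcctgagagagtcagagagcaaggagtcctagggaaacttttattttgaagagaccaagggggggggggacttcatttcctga
In Cnp the match to ACAAAG began 167 bases and that to CTGGCAC 81 bases before the start. In Mag they began 126 and 68 bases before it, and Pdgfra had 1 match, to CAGATG, 182 bases before its start. A match describes the letters and is not a measured binding site.

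The 7 genes of lipid and metabolic enzymes, transport and secretion also had estimates below 0 in Crym KO IP (median -0.28), and none was called. Trf, transferrin, which carries iron, was at 216, 163, 167 and 113 CPM in Control IP and 145, 169, 86.2 and 105 CPM in Crym KO IP (log2 fold change -0.40, SE 0.19, adjusted p = 0.643). Input held 107, 93.7, 95.1 and 111 CPM in Control and 96.7, 97.5, 99.2 and 84.1 CPM in Crym KO. Its value in Crym KO IP 3 was the lowest of the 8 IP libraries, and in Control mice all IP values lay above all Input values (log2 ratio 0.66, SE 0.19, adjusted p = 0.00413).

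Gpr37, a receptor abundant in oligodendrocytes, had the highest ratio of IP over Input of the 31 genes in both genotypes. It was at 235, 164, 163 and 149 CPM in Control IP against 103, 88.7, 95.1 and 110.1 CPM in Control Input (log2 ratio 0.82, SE 0.13, adjusted p = 2.57e-05). In Crym KO, IP held 146, 173, 115 and 148 CPM and Input 95.9, 97.5, 114 and 98.0 CPM (log2 ratio 0.51, SE 0.13, adjusted p = 0.00201). All 4 IP values lay above all 4 Input values in each genotype, a separation whose share over all genes was not counted. The log2 fold change between the IP groups was -0.28 (SE 0.13, adjusted p = 0.645). The call of Gpr37 in Crym KO mice was kept with upper quartile scaling and with library sizes alone, but not in the males alone.

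Enpp2, autotaxin, which makes the signalling lipid lysophosphatidic acid, had the smallest p of the 31 genes in Input. It was at 277, 255, 250.0 and 461 CPM in Control Input and 243, 251, 263 and 237 CPM in Crym KO Input (log2 fold change -0.27, SE 0.16, adjusted p = 0.753). Control Input 4 alone was far above the other Input libraries, and it was also the library with 578 CPM of Ttr. Without it the 7 remaining Input values ran from 237 to 277 CPM. In IP, Enpp2 was at 465, 352, 362 and 352 CPM in Control and 305, 363, 257 and 296 CPM in Crym KO (log2 fold change -0.33, SE 0.16, adjusted p = 0.647). Enpp2 is also a transcript of the choroid plexus, and that tissue's part in these values was not tested.

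Of the other enzymes, Aspa splits N-acetylaspartate and yields acetate for lipid synthesis, Ugt8a makes galactocerebroside, Fa2h hydroxylates the fatty acids of myelin lipids, and Enpp6 is a choline phosphodiesterase of newly formed oligodendrocytes. Their log2 fold changes in Crym KO IP were -0.36, -0.24, -0.22 and -0.15, and in Input 0.085, 0.11, -0.0094 and -0.0090. IP over Input in Control mice was 0.51 (SE 0.15, adjusted p = 0.00503) for Aspa and -0.70 (SE 0.12, adjusted p = 6.22e-05) for Enpp6, both called, and 0.22 and -0.051 for Ugt8a and Fa2h, neither called.

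The 6 transcription factors had log2 fold changes in Crym KO IP from -0.36 (Myrf) to -0.049 (Nkx2-2), and none was called. Myrf, the factor that switches on myelin genes in mature cells, had the smallest p of the 31 genes there. It was at 42.0, 34.5, 36.8 and 30.5 CPM in Control IP and 29.5, 32.7, 22.7 and 27.5 CPM in Crym KO IP (log2 fold change -0.36, SE 0.099, adjusted p = 0.460). Input held 27.0, 24.7, 24.9 and 28.4 CPM in Control and 25.3, 23.9, 26.9 and 23.9 CPM in Crym KO. The IP groups overlapped, because Crym KO IP 2 lay above Control IP 4.

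Sox10, which acts throughout the lineage, was at 51.0, 41.5, 38.6 and 37.8 CPM in Control IP and 35.6, 41.1, 26.9 and 36.0 CPM in Crym KO IP (log2 fold change -0.28, SE 0.11, adjusted p = 0.582). Input held 33.1, 29.4, 32.5 and 36.8 CPM in Control and 34.4, 31.9, 38.2 and 33.1 CPM in Crym KO. Sox10 was higher in IP than in Input in Control mice (0.35, SE 0.12, adjusted p = 0.0111), and its ratio in Crym KO was 0.0036 (SE 0.12, adjusted p = 0.980). The call of Sox10 in Control mice was lost with upper quartile scaling and with library sizes alone.

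Olig2, which specifies the lineage, was at 25.2, 17.0, 19.0 and 16.4 CPM in Control IP and 16.2, 22.2, 14.8 and 17.7 CPM in Crym KO IP (log2 fold change -0.13, SE 0.13, adjusted p = 0.854). Input held 18.3, 15.4, 16.9 and 20.3 CPM in Control and 17.9, 14.9, 18.0 and 16.7 CPM in Crym KO, so the 4 groups overlapped throughout. Olig1, its neighbour on chromosome 16, had a log2 fold change of -0.079 in Crym KO IP, Nkx2-2 one of -0.049 and Nkx6-2 one of -0.35. Neither Olig1 nor Olig2 was called for IP over Input in either genotype (0.067 and 0.12 in Control, -0.0097 and 0.058 in Crym KO), and neither was Nkx2-2 (0.11 and 0.11). Olig2 is also transcribed in some astrocytes.

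Among the genes of precursors and newly formed cells, 4 had estimates of another sign than the sheath genes in Crym KO IP. This difference between genes was not tested. The 4 are Pdgfra, Cspg4, Gpr17 and Neu4, the only estimates above 0 of the 31 genes, though none was called. The other genes of these lists were below 0 there: Lhfpl3 (-0.19), Nkx2-2 (-0.049), Bcas1 (-0.15), Enpp6 (-0.15) and Tspan2 (-0.43). In Control mice all 4 were lower in IP, as were Enpp6, Bcas1 and the sheath gene Mobp. Gpr17, a receptor of committed precursors, was at 30.5, 18.4, 28.8 and 28.5 CPM in Control IP and 31.1, 35.6, 29.0 and 32.7 CPM in Crym KO IP (log2 fold change 0.30, SE 0.12, adjusted p = 0.570). Input held 50.5, 48.4, 51.0 and 55.2 CPM in Control and 57.1, 53.3, 51.6 and 52.0 CPM in Crym KO. Control IP 2 was the lowest, Control IP 3 and 4 also lay below every Crym KO IP value, and Control IP 1 lay within the Crym KO range.

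Neu4, a sialidase, was at 6.32, 3.96, 4.88 and 5.84 CPM in Control IP against 9.88, 9.22, 9.41 and 9.12 CPM in Control Input (log2 ratio -0.87, SE 0.11, adjusted p = 3.46e-06). In Crym KO it was at 6.20, 6.60, 5.31 and 6.48 CPM in IP and 10.1, 8.74, 9.83 and 8.36 CPM in Input (log2 ratio -0.60, SE 0.11, adjusted p = 0.000136). Its values in IP lay below those in Input in both genotypes, and the IP groups overlapped.

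For Pdgfra, whose values were given above, IP over Input on the log2 scale was -1.09 (SE 0.086, adjusted p = 8.44e-09) in Control and -0.95 (SE 0.085, adjusted p = 3.73e-08) in Crym KO. Pdgfra is also in the list of fibroblast and meningeal markers used here, and the part of those cells in its values was not tested. Cspg4, the NG2 proteoglycan, was at 14.3, 10.4, 15.1 and 14.5 CPM in Control IP and 14.9, 14.4, 13.9 and 17.8 CPM in Crym KO IP (log2 fold change 0.19, SE 0.10, adjusted p = 0.691). Input held 22.2, 20.6, 21.6 and 22.5 CPM in Control and 23.6, 23.5, 22.7 and 22.4 CPM in Crym KO. Cspg4 is also carried by mural cells, whose 6 markers (Cspg4 among them) had a median log2 ratio of IP over Input of -1.20 in Control and a median log2 fold change of 0.24 in Crym KO IP, and their part in these values was not tested. Their summed level was 62.9 to 91.4 CPM in Control IP and 87.5 to 112 CPM in Crym KO IP.

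Bcas1, a protein of early myelinating cells, was at 97.9, 69.9, 71.5 and 70.1 CPM in Control IP and 69.8, 80.2, 59.2 and 68.0 CPM in Crym KO IP (log2 fold change -0.15, SE 0.12, adjusted p = 0.799). Input held 103, 78.4, 92.8 and 109 CPM in Control and 109, 99.9, 121 and 102 CPM in Crym KO (log2 fold change 0.18, SE 0.12, adjusted p = 0.803). Bcas1 was lower in IP than in Input in both genotypes (-0.31 and -0.64). Lhfpl3, a membrane protein of precursors, had a log2 fold change of -0.19 in Crym KO IP and a ratio of IP over Input of -0.15 in Control, not called, and -0.30 in Crym KO, called.

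**Figure D5:**
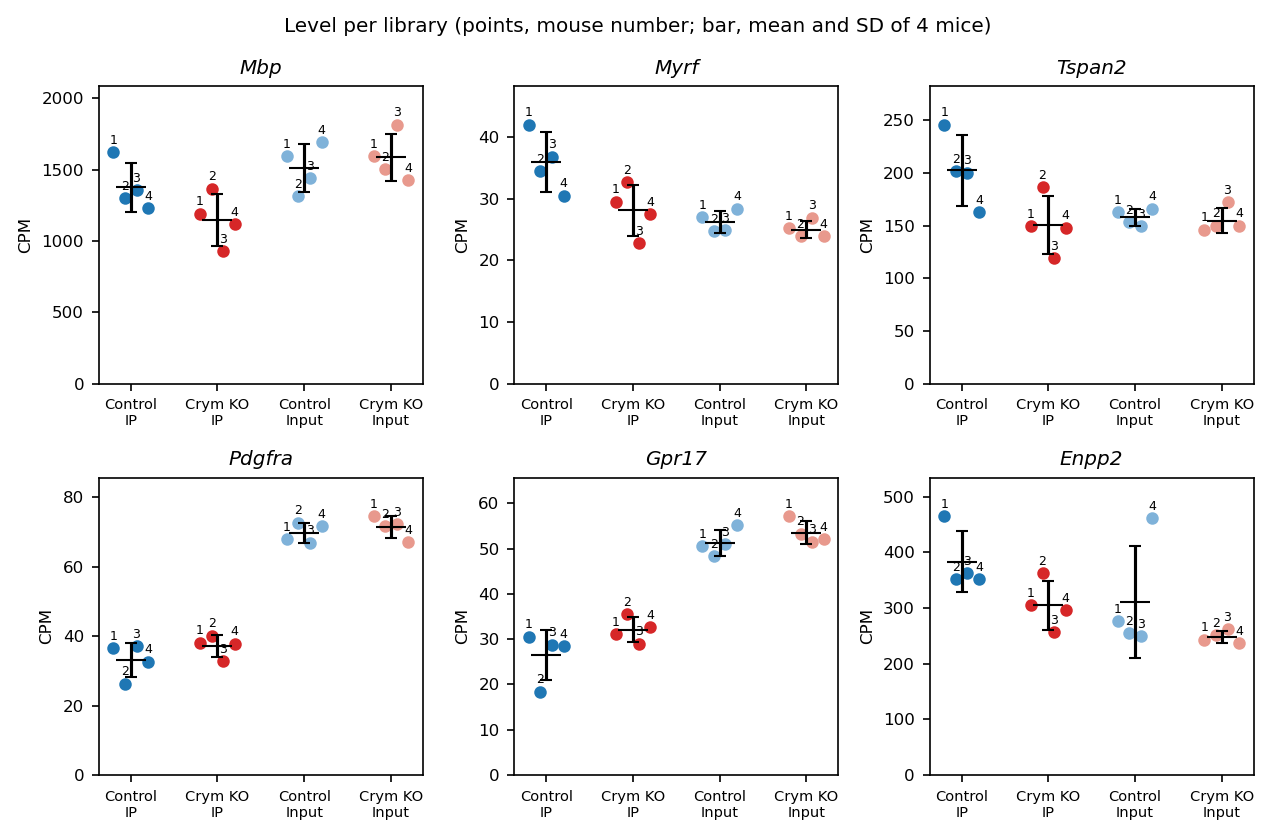
CPM (vertical axis, from 0) of 6 genes in each library, with points numbered by mouse, and a bar for the mean and SD of 4 mice in each group. Pdgfra and Gpr17 lie lower in both IP groups than in both Input groups, the IP groups of Myrf and Tspan2 overlap, and Control Input 4 stands apart for Enpp2 at 461 CPM.

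The median log2 ratio of IP over Input of the 12 sheath genes was 0.64, 0.42, 0.41 and -0.050 in Control mice 1 to 4, and 0.039, 0.38, -0.52 and -0.0037 in Crym KO mice 1 to 4. Crym KO mouse 3 had the lowest ratio. Of the 25 genes outside the precursor group, its IP library held the lowest IP value for 24 and its Input library the highest Input value for 14. The genotypes overlapped, since Crym KO mouse 2 lay within the Control range and Control mouse 4 within the Crym KO range. The 6 precursor genes gave -0.63, -1.09, -0.67 and -0.63 in Control and -0.68, -0.49, -0.77 and -0.35 in Crym KO, where Control mouse 2 was lowest. In the same IP libraries the summed level of 4 ependymal markers (Foxj1, Tmem212, Ccdc153 and Rarres2) was highest in Control IP 1 at 135 CPM and lowest in Crym KO IP 3 at 50.8 CPM. The summed level of the 10 astrocyte markers was 18569 CPM in Control IP 2, 24442 to 26033 CPM in the other Control IP libraries and 24976 to 28666 CPM in Crym KO IP. The part of these markers in the values of the 31 genes was not tested.

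Further genes of the lineage, outside the 31, were measured as 2 lists. Of 32 further genes of mature oligodendrocytes, 0 were called in Crym KO IP, and 30 of 32 estimates were below 0, against 48.6% of all genes tested. Their median was -0.21, against 0.015 in Input. They were read in the same IP libraries as the 31 genes and are not separate evidence. Their median deviation from the Control IP mean was highest in Control IP 1 (0.25) and lowest in Crym KO IP 3 (-0.50). The smallest p were those of Evi2a, at -0.35 (SE 0.13, adjusted p = 0.550), Tmem63a, at -0.34 (SE 0.12, adjusted p = 0.550), Zfp536, at -0.16 (SE 0.061, adjusted p = 0.554), and Zfp488, at -0.41 (SE 0.15, adjusted p = 0.564). In Control mice 16 of 32 were higher in IP and 6 lower, against 36.7% and 38.5% of all genes tested. Car2, carbonic anhydrase 2, which astrocytes can also express, had the largest ratio at 1.03 (SE 0.079, adjusted p = 5.78e-09). In Crym KO mice 7 were higher and 10 lower, against 36.2% and 37.9% of all genes tested.

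Of 22 further genes of precursors and newly formed cells, 0 were called in Crym KO IP. Of their estimates 15 were above 0, where 10604 of all 20645 genes tested were, and the median was 0.090. In Control mice 6 of 22 were higher in IP and 9 lower, against 36.7% and 38.5% of all genes, and in Crym KO mice 7 and 10, against 36.2% and 37.9%. Pcdh15, a protocadherin, had a log2 ratio of -1.20 (SE 0.047, adjusted p = 4.22e-12) in Control, and Rras2, a small GTPase, -0.92 (SE 0.091, adjusted p = 1.30e-07). Itpr2, a calcium channel of the endoplasmic reticulum that is abundant in astrocytes, and Sox6 were higher in IP at 1.04 (SE 0.098, adjusted p = 7.32e-08) and 0.91 (SE 0.096, adjusted p = 2.43e-07). In Input the smallest p was that of Tcf7l2, a factor of newly formed oligodendrocytes that some neurons also express, at -1.06 (SE 0.26, adjusted p = 0.415), with 9.07, 5.48, 3.77 and 6.24 CPM in Control and 2.87, 2.76, 3.12 and 2.25 CPM in Crym KO. Tcf7l2 was picked as the smallest p of these 22 genes and was not called in Input, so its values there are not read as a difference between genotypes. In IP the groups of Tcf7l2 overlapped, at 4.11 to 7.63 CPM in Control and 3.88 to 5.01 CPM in Crym KO.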

How the data were processed

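RNA-seq was measured in 16 libraries (4 mice per genotype, IP and Input of each). The authors deposited whole-number read counts per Ensembl gene identifier, not normalized. Per the study's methods, ribosomal RNA was depleted, STAR aligned the reads to the mouse genome (mm10, that is GRCm38), and uniquely mapping fragments were counted by HTSeq. The submitters' notes also list bcl2fastq 2.17. RefSeq is named there as the gene model, although the table has Ensembl identifiers. A strand setting is not given in the sources used here, so overlapping genes cannot be told apart by strand.

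Symbols, positions and exon lengths came from the GRCm38 reference annotation, which named 48435 of the 48795 identifiers. The test was limma-voom (limma 3.58.1, edgeR 4.0.16, R 4.3.3) on all 16 libraries with 4 group means, TMM scaling and the edgeR expression filter, which kept 20645 genes. For each of 5 contrasts, two-sided p-values received the Benjamini-Hochberg adjustment across the 20645 genes, and the threshold was 0.05. The 95% intervals use the moderated t distribution of that fit. CPM was computed from counts and TMM-scaled library sizes, and 0.1 CPM was added before logs of single libraries. Total counts were 39421209 to 62596661 per library, and no pair of replicates was identical.

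The 31 genes, the further lists and the naming rule were chosen with earlier results of these data known. Values in every library were given for Mbp, Pdgfra, Sox10, Olig2 and Cspg4, for the 6 genes with the smallest p in Crym KO IP, the 3 with the smallest p in Crym KO Input, and the 3 highest and 3 lowest IP over Input in Control. Of the further lists, up to 4 genes with the smallest p in a comparison were named. The choroid plexus genes were chosen after the values of Enpp2 were seen. The p-values measure the spread between libraries within groups, estimated for each gene from IP and Input libraries together and without a term for the mouse. The median of the 31 genes varied more between IP libraries (SD 0.243) than between Input libraries (SD 0.107). The p-values of Crym KO IP may therefore be too small.

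The labels give IP and Input libraries of a number as 1 mouse. Over all genes, deviations from the group means correlated between IP and Input of the same mouse at 0.231 to 0.463 in Control and 0.0728 to 0.268 in Crym KO. Mice of the same number in the 2 genotypes are different animals. Their IP libraries correlated at 0.163 to 0.312 (4 of 4 pairs over 0.1; 3 of 4 on autosomal genes), so the fit with the number as a block is given for IP, and their Input libraries at 0.0646 to 0.195 (2 of 4 over 0.1). Alternatives were other scalings and filters, edgeR's quasi-likelihood test, DESeq2 1.42.0, a block for the mouse or number, fits of the compared groups alone, and leaving out each library. The pipeline was tested on simulated counts.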

Additional observations from a re-analysis of the deposited data

Results flagged for a closer look

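In 11 of 124 groups of 4 libraries (31 genes in 4 groups), 1 library stood far from the other 3 by the 95% critical value of Dixon's test on the gap to the nearest of them. Chance flags about 1 in 20 groups. In Control IP these were Enpp2 at 464.8 CPM and Bcas1 at 97.9 CPM in Control IP 1, and Gpr17 at 18.4 CPM in Control IP 2. In Control Input they were Enpp2 at 461 CPM and Nkx2-2 at 1.67 CPM in Control Input 4, and Lhfpl3 at 35.3 CPM in Control Input 1. In Crym KO Input they were Tspan2 at 173 CPM, Ugt8a at 138 CPM and Gpr37 at 114 CPM in Crym KO Input 3, and Trf at 84.1 CPM and Nkx2-2 at 1.53 CPM in Crym KO Input 4.

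Control Input 4 also held 578 CPM of Ttr, 17.0 CPM of Kl, 4.25 CPM of Folr1 and 2.26 CPM of Kcne2, against at most 7.06, 3.22, 0.530 and 0.119 CPM in the other 7 Input libraries. These 4 genes of the choroid plexus were chosen after seeing the value of Enpp2, and what it owes to that tissue was not tested.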

How the results depend on the processing

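In Crym KO IP, Crym KO Input and the interaction, 0 of the 31 genes were called under every alternative run. Leaving out 1 library, the median in Crym KO IP ran from -0.37 (without Crym KO IP 2) to -0.17 (without Crym KO IP 3), and the count below 0 in Crym KO Input from 6 (without Control Input 4) to 21. In Crym KO IP the lowest adjusted p was 0.0711 (without Control IP 4), 0.0788 by DESeq2 and 0.359 by edgeR. It was 0.966 in limma on the IP libraries alone. For IP over Input, leaving out 1 library gave 10 to 14 genes higher and 6 to 7 lower in Control, with medians of 0.048 to 0.26, and 2 to 6 higher and 8 to 12 lower in Crym KO, with medians of -0.084 to 0.094. Over all genes, these fits called 7277 to 7580 higher and 7731 to 7848 lower in Control. In Crym KO they called 7210 to 7604 higher and 7547 to 7726 lower. Without both libraries of Crym KO mouse 3, 6 of the 31 were higher in Crym KO, and 7285 of all 20868 genes. With upper quartile scaling 8 of the 31 genes were higher in Control, and 1 higher and 14 lower in Crym KO. The same 3 counts over all genes were 5536, 5393 and 9701. With library sizes alone the counts among the 31 were 6, 1 and 14, and the Crym KO median was -0.20. Over all genes they were 5123, 5054 and 10092. In females alone 15 of the 31 genes were higher in Control (median 0.37) and 8 in Crym KO, and in males alone 3 and 0 (Crym KO median -0.24). Of all 20826 genes fitted in females, 6204 were higher in Control and 6145 in Crym KO. Of all 20834 genes fitted in males, 6374 and 6217 were. The cause of these counts was not tested. The fits within sexes and without both libraries of a mouse were chosen after seeing the data.

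Among all genes, without Control IP 4, 5 were called higher and 31 lower in Crym KO IP, and a fit of the IP libraries alone called 1 and 1. DESeq2 called 17 higher and 54 lower in Crym KO IP and 14 and 33 in Input. With a replicate block for the number, 8 and 35 genes were called in Crym KO IP and 2 and 13 in Input, none of the 31, with a lowest adjusted p of 0.176. The block for the number was run for Crym KO IP and Crym KO Input alone, where none of the 31 was called without it either. With a block for the mouse, 14 and 7 of the 31 were called higher and lower for IP over Input in Control and 3 and 9 in Crym KO. Over all 20645 genes these were 7730 and 8016 in Control and 7648 and 7899 in Crym KO. With 4 mice per group, small differences in these genes may have gone undetected.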

Other observations

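Because mice 1 and 2 were female and mice 3 and 4 male in both genotypes, the values of each mouse can also be read by sex, a reading made after seeing the data. The median log2 ratio of IP over Input of the 31 genes was 0.54 and 0.19 in the female Control mice and 0.25 and -0.14 in the males. It was -0.060 and 0.31 in the female Crym KO mice and -0.54 and 0.0021 in the males. The values of the sexes overlapped in both genotypes, and a difference between them was not tested.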
